A study of Schizosaccharomyces pombe with 4 samples.

Results

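The tallest peaks of Taz1 at 5 genomic windows outside the telomeres were examined, at the genes erf2 with SPBC3H7.08C, ivn1, iec1, coa6 and cuf1 of the fission yeast Schizosaccharomyces pombe. The windows were selected on the measured Taz1 enrichment of the same arrays, Taz1_GFP and Taz1_wt, and with results of all 4 arrays known, so their values are descriptions and were not tested. They hold 238 of the 41251 chromosome tiles of the array, in 5 windows of 12 to 17 kb at 6 genes. Chromatin was mapped by immunoprecipitation and hybridisation to 2-colour tiling arrays (ChIP-chip), with 1 array for each of 4 groups. In Taz1_GFP, cells with GFP-tagged Taz1 were precipitated with an antibody to GFP. In Taz1_L593F, cells with the taz1 allele L593F (labelled mut5) were precipitated with an antibody raised against Taz1. In Rif1_Myc, cells with Myc-tagged Rif1 were precipitated with an antibody to Myc. In Taz1_wt, wild-type cells were precipitated with the antibody raised against Taz1. All 4 groups were log-phase cultures in rich medium at 30 °C, fixed with 3% paraformaldehyde.

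Taz1 is the shelterin subunit that binds double-stranded telomere repeats through a Myb-type domain, and it recruits other telomere proteins, among them Rap1 and Rif1. Away from the telomeres, Taz1 is known to hold some replication origins late and to take part in forming islands of heterochromatin. Rif1 is a regulator of origin timing that also sits at telomeres.

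Enrichment is given as a log2 ratio, in which DNA recovered with the antibody (IP) is set over DNA of the whole-cell extract (WCE). The median of every array was set to 0, and a log2 ratio of 1 is a 2-fold enrichment. Because a group held 1 array, there was no replicate error and no difference between groups was tested. An SD given here is the spread over neighbouring tiles of 1 array, which share DNA fragments of 500 to 1000 bp. With 1 slide per group, an effect of the slide and an effect of the group cannot be told apart. The robust SD over all tiles was 0.27 on Taz1_GFP, 0.20 on Taz1_L593F, 0.40 on Rif1_Myc and 0.23 on Taz1_wt. No tile of the 5 windows was an outlier spot, and 1 tile of the coa6 window carried the mark taken here as that of a multi-copy probe. Summit positions are those of the probe names, and no source used here names their genome build. Gene positions and sequences are those of assembly ASM294v3, on which the tiles were placed by matching WCE signal to GC content.

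All 5 summits fell between protein-coding genes, and those genes on both sides were transcribed away from the summit. Of the 3940 gaps between protein-coding genes, 31.9% have this divergent arrangement. Long non-coding RNAs were not counted as genes here. Annotated ones overlapped the gap at erf2 (2), ivn1 (3), coa6 (4) and cuf1 (5), and 0 did at iec1. The gap at the erf2 window (chrII:1867533-1868945) is 1413 bp long and separates erf2, a protein palmitoyltransferase gene, from the uncharacterised SPBC3H7.08C. The gap at the ivn1 window (chrII:1497556-1498502) is 947 bp long and separates ivn1, annotated as a regulator of an aminophospholipid translocase, from wwm1. The gap at the iec1 window (chrI:4651885-4653048) is 1164 bp long and separates prl46 from iec1, the gene of an Ino80 chromatin remodelling subunit. The gap at the coa6 window (chrII:2337740-2340412) is 2673 bp long and separates SPBC24C6.09C, a phosphoketolase family gene, from coa6, related to subunit VIb of cytochrome c oxidase. The gap at the cuf1 window (chrI:409846-411798) is 1953 bp long and separates cuf1, a copper-sensing transcription factor gene, from the arrestin family gene rod1. All 5 gaps were longer than the median gap of 394 bp. Arrangement and length go together, and divergent gaps had a median of 790.5 bp.

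The iec1 summit lay closest to a protein-coding gene. The Taz1_GFP running median had 2 tied highest tiles at ivn1, iec1, coa6 and cuf1, and the later one was used, which at iec1 lay 39 bp before the start of that gene. Shifts of 4380 to 4610 bp placed the tiles there nearly as well as the 4510 bp used, so this distance is within the uncertainty of the placement. The earlier tied tile, which had the higher value of its own, lay 339 bp before iec1. At the other 4 windows the summit used lay at least 346 bp from both genes, and the earlier tied tile at ivn1 lay 225 bp from ivn1. The Taz1_wt summit lay in the same gap at all 5.

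The sequences of the gaps were searched for the telomere repeat core GGTTAC on both strands, because Taz1 binds telomere repeats. The coa6 gap held 4 matches, and 0.915% of stretches of its length across the genome held as many. The cuf1 gap held 1 match, and 38.7% of stretches of its length held at least as many. The gaps at erf2, ivn1 and iec1 held 0 matches. The longer motif GGTTACA, which contains the first, had 2 matches in the coa6 gap and 0 in the other 4. Within 1.5 kb of the placed summit, coa6 had 5 matches and cuf1 had 1, with 0 at the other windows. The stretches with matches are shown on the forward strand with the match in capitals and 20 bases on both sides.
coa6 gap, chrII:2338172-2338217: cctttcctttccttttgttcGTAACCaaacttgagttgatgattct
coa6 gap, chrII:2338741-2338911: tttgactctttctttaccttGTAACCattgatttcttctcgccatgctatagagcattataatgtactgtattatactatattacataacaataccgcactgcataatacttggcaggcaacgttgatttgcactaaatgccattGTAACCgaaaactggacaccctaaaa
coa6 gap, chrII:2339301-2339346: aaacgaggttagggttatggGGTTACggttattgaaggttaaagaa
cuf1 gap, chrI:410483-410528: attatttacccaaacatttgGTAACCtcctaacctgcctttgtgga

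The nearest of the coa6 matches began 229 bp before the placed summit, and the cuf1 match began 97 bp before it. These distances carry the uncertainty of the placement, which near these windows allowed shifts of −1810 to −1500 bp for coa6 and −870 to −590 bp for cuf1. The 3 gaps without a match are shown by the stretch that lies next to the named gene, or by the feature that stood out in them. For ivn1 and iec1 these are 250 bases before and 50 bases after the annotated start, on the strand of the gene, with the 50 transcribed bases in capitals.
ivn1 promoter, chrII:1497506-1497805, minus strand: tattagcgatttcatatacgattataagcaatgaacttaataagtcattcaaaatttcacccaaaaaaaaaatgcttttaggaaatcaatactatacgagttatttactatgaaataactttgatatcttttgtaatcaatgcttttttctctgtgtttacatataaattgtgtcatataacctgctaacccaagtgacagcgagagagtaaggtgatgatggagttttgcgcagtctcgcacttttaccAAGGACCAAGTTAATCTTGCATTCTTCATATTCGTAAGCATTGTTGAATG
iec1 promoter, chrI:4652799-4653098, plus strand: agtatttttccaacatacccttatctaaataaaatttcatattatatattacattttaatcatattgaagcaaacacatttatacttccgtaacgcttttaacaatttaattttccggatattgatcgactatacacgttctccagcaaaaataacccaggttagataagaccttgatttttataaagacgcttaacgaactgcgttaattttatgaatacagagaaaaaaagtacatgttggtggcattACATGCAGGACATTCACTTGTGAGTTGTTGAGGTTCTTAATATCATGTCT

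The erf2 gap, where the tallest peak stood, had a GC content of 28.7%, and 20.9% of gaps had less. It also held a run of 24 T bases. A run of A or T at least that long occurs in 1.55% of gaps, and this run was chosen after the sequence was seen. It is shown on the forward strand with the run in capitals and 60 bases on both sides.
erf2 gap, chrII:1868063-1868206: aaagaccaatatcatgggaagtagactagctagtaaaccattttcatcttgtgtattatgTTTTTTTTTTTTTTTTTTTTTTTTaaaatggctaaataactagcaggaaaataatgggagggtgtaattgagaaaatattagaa

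Within 1.5 kb of the summit, GC content was below the median of all stretches of that length at 4 of the 5 windows. It was 32.1% at erf2, 36.7% at ivn1, 33.1% at iec1, 33.7% at coa6 and 30.2% at cuf1, beside a median of 36.0%. Within 0.75 kb it was 31.0% at erf2, 31.3% at ivn1, 34.3% at iec1, 34.7% at coa6 and 29.0% at cuf1, beside 35.9%. Gaps between protein-coding genes had a median GC content of 31.3%, so low values are common in such DNA. WCE signal moved with GC content on these arrays, with a median r of 0.458 across the blocks used for placement. The log2 WCE signal at the 5 cores lay 0.49 to 1.33 below the array median, and it was lowest at iec1, where 6.47% of tiles lay lower. The ratios themselves had r with GC content of −0.19 on Taz1_GFP, −0.22 on Taz1_L593F, 0.28 on Rif1_Myc and −0.13 on Taz1_wt. How far this made the values at the cores was not tested. With a linear fit on GC content removed, an alternative added after the data were seen, the summits stayed at 2-fold or more on Taz1_GFP and Taz1_wt in all 5 windows. On Taz1_L593F and Rif1_Myc they stayed below it. The median Rif1_Myc core mean was 0.22 with the fit removed, against 0.12. The median Taz1_L593F summit was 0.45 both ways, and that at cuf1 was 0.45 against 0.58.

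The summit of each window was read on each array by itself, as the highest running median of 3 tiles anywhere in the window. All 5 summits were at least 2-fold on Taz1_GFP and on Taz1_wt, and none was on Taz1_L593F or Rif1_Myc. Over the whole array the running median reached 2-fold at 1.24% of tiles on Taz1_GFP, 0.017% on Taz1_L593F, 2.09% on Rif1_Myc and 0.528% on Taz1_wt. In the windows it did so at 101 of 238 tiles on Taz1_GFP, at 0 on Taz1_L593F, at 0 on Rif1_Myc and at 42 on Taz1_wt. The Taz1 arrays chose the windows, so nothing is read from their counts. As means over the whole gap, 5 of the 5 gaps were at 2-fold or more on Taz1_GFP, 0 on Taz1_L593F, 0 on Rif1_Myc and 4 on Taz1_wt. Over all 3106 measured gaps such a mean was found at 1.13% on Taz1_GFP, 0% on Taz1_L593F, 1.45% on Rif1_Myc and 0.451% on Taz1_wt. The gap below 2-fold on Taz1_wt was that at iec1, at 0.91.

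The Taz1_GFP summit at erf2 lay at array position 1870200 of chromosome II. The summits of the arrays were 3.71 on Taz1_GFP, 0.38 on Taz1_L593F, 0.64 on Rif1_Myc and 3.11 on Taz1_wt. At position 1870200 itself Rif1_Myc was 0.14. The erf2 summit was the highest of the 5 on both arrays of unmutated Taz1, a 13.1-fold enrichment on Taz1_GFP and 8.62-fold on Taz1_wt. The Taz1_GFP summit at ivn1 lay at position 1498800 of chromosome II. The summits there were 3.40 on Taz1_GFP, 0.45 on Taz1_L593F, 0.76 on Rif1_Myc and 2.33 on Taz1_wt. At position 1498800 itself Taz1_L593F was 0.33, Rif1_Myc 0.31 and Taz1_wt 2.31. The Taz1_GFP summit at iec1 lay at position 4648500 of chromosome I. The summits in that window were 3.44 on Taz1_GFP, 0.52 on Taz1_L593F, 0.73 on Rif1_Myc and 1.09 on Taz1_wt. At position 4648500 itself Taz1_L593F was 0.20, Rif1_Myc 0.20 and Taz1_wt 0.69. The iec1 peak was the lowest of the 5 on Taz1_wt, just above the 2-fold line, while on Taz1_GFP it was level with ivn1 within 1 robust SD. Its place beside ivn1 on Taz1_GFP turned with normexp, where iec1 was 3.86 and ivn1 4.23, without the dimmest 5% of tiles, where they were 3.06 and 3.40, and with a running median of 5, where they were 2.81 and 3.11. That Taz1_wt summit fell below the line at 0.75 with a running median of 5, at 0.91 without the dimmest 5% of tiles and at 0.92 against the flanks of the window.

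The Taz1_GFP summit at coa6 lay at position 2341200 of chromosome II. The summits of the arrays were 3.07 on Taz1_GFP, 0.28 on Taz1_L593F, 0.80 on Rif1_Myc and 2.12 on Taz1_wt. At position 2341200 itself Taz1_L593F was 0.17. The Taz1_GFP summit at cuf1 lay at position 411300 of chromosome I. The summits in that window were 2.83 on Taz1_GFP, 0.58 on Taz1_L593F, 0.77 on Rif1_Myc and 1.49 on Taz1_wt. At position 411300 itself Taz1_L593F was 0.45 and Rif1_Myc 0.18. The Taz1_GFP and Taz1_wt summits lay within 300 bp of each other, the spacing of the tiles, in every window. Tile by tile, the 2 arrays followed each other with Pearson's r of 0.92 over 54 tiles at erf2, 0.91 over 57 at ivn1, 0.74 over 43 at iec1, 0.94 over 40 at coa6 and 0.88 over 44 at cuf1. Neighbouring tiles share fragments, so these describe the profiles only.

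**Figure D1:**
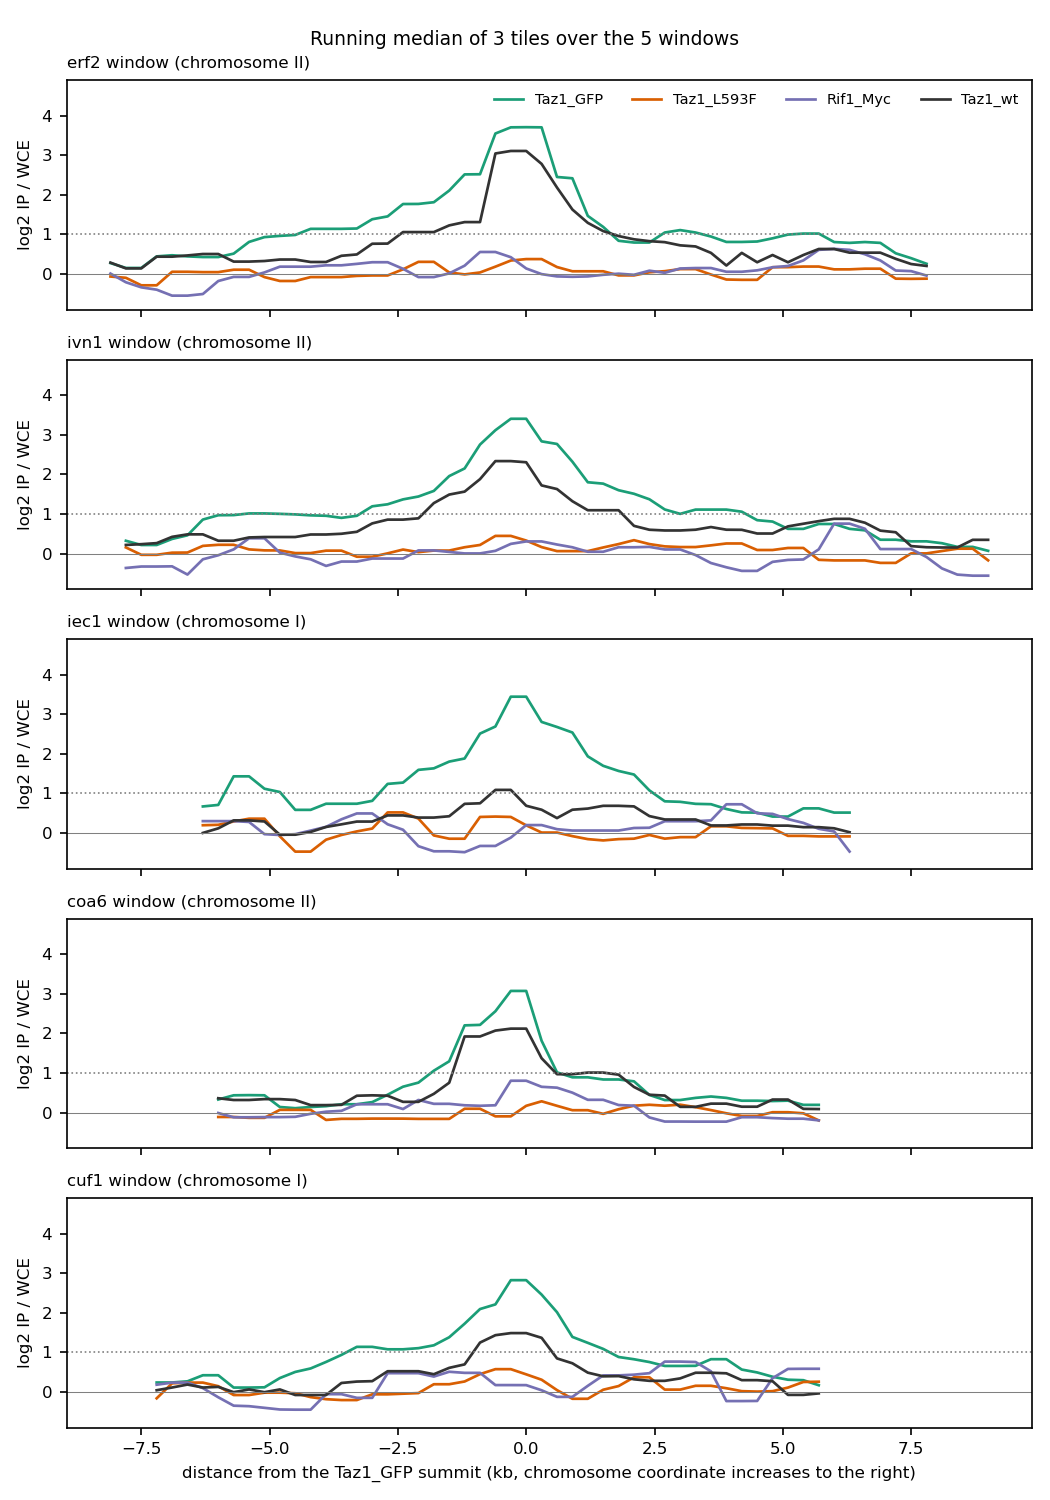
Running median of 3 tiles of the log2 IP over WCE ratio (vertical axis) against distance from the Taz1_GFP summit in kb (horizontal axis), 1 panel per window and 1 line per array. The dotted line marks 2-fold, which the Taz1_GFP and Taz1_wt lines cross in all 5 windows and the Taz1_L593F and Rif1_Myc lines in none.

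The peaks were broader on Taz1_GFP than on Taz1_wt in 4 windows at 0.5 times the summit log2 ratio. That width was 2.7 kb on Taz1_GFP and 1.8 kb on Taz1_wt at erf2, 3.3 kb and 3.0 kb at ivn1, 3.0 kb and 1.8 kb at iec1, and 2.1 kb and 1.8 kb at cuf1. At coa6 it was 1.8 kb on both arrays. The runs at ivn1 (11 and 10 tiles) and cuf1 (7 and 6 tiles) differed by a single tile, less than a DNA fragment. With a running median of 5 the direction turned at iec1, where the width was 4.5 kb on Taz1_GFP and 6.0 kb on Taz1_wt. At the 2-fold level the run of tiles was 6.0 kb on Taz1_GFP and 4.2 kb on Taz1_wt at erf2, 7.5 kb and 3.9 kb at ivn1, 5.4 kb and 0.6 kb at iec1, 2.7 kb and 1.8 kb at coa6, and 5.1 kb and 1.5 kb at cuf1. At this level the longest run was at ivn1 on Taz1_GFP and at erf2 on Taz1_wt, and the shortest at coa6 on Taz1_GFP and at iec1 on Taz1_wt. The order at 0.5 times the summit was another one, with ivn1 the widest on both arrays.

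Some peaks leaned to one side of the summit tile used. At erf2 the mean of the 3 tiles 1 to 2 kb from the summit was 2.15 ± 0.35 on the side of the erf2 gene and 1.17 ± 0.31 on the side of SPBC3H7.08C (SD over tiles). At coa6 it was 1.52 ± 0.61 on the side of SPBC24C6.09C and 0.84 ± 0.05 on the side of coa6. On Taz1_wt the means of the sides were close around the same summit tiles. They were 1.15 ± 0.22 and 1.09 ± 0.21 for erf2, in the same order of sides. For coa6 they were 1.05 ± 0.77 and 1.03 ± 0.09. The extents on Taz1_wt were less even. At coa6 the Taz1_wt run at 0.5 times the summit reached 1.2 kb and 0.3 kb to these sides, as on Taz1_GFP. At erf2 the Taz1_wt run reached 0.6 kb and 0.9 kb, and at 2-fold 2.4 kb and 1.5 kb. The coa6 values depended on the tie of summit tiles. Around the earlier tied tile the Taz1_GFP tiles were 0.65, 1.06 and 1.3 on the side of SPBC24C6.09C. On the side of coa6 they were 1.01, 0.89 and 0.84. The same tiles on Taz1_wt were 0.27, 0.47 and 0.75, and 0.97, 1.13 and 1.01. At ivn1 the sides of ivn1 and wwm1 were 1.90 and 1.72 on Taz1_GFP and 1.44 and 0.99 on Taz1_wt. The Taz1_wt summit lay 300 bp nearer to ivn1, at the earlier tied tile of Taz1_GFP. Around that tile the Taz1_GFP tiles were 1.44, 1.58 and 1.96 on the side of ivn1. On the side of wwm1 they were 2.32, 1.80 and 1.77. The same tiles on Taz1_wt were 0.89, 1.27 and 1.49, and 1.32, 0.73 and 1.09. The lean at ivn1 thus depended on the tile used. At iec1 the sides of prl46 and iec1 were 1.76 and 1.73 on Taz1_GFP around the later tied tile. On Taz1_wt they were 0.45 and 0.67. Around the earlier tied tile the Taz1_GFP tiles were 1.63, 1.60 and 1.80, and 2.54, 1.94 and 1.70. At cuf1 the sides of cuf1 and rod1 were 1.41 and 1.05 on Taz1_GFP and 0.56 and 0.40 on Taz1_wt. Around the earlier tied tile of cuf1 the Taz1_GFP tiles were 1.18, 1.11 and 1.38, and 1.39, 1.24 and 1.09. The iec1 window also had a second, smaller rise on Taz1_GFP away from the summit, 5.4 kb to the side of prl46, where the tile was 1.44 on Taz1_GFP and 0.41 on Taz1_wt.

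**Figure D2:**
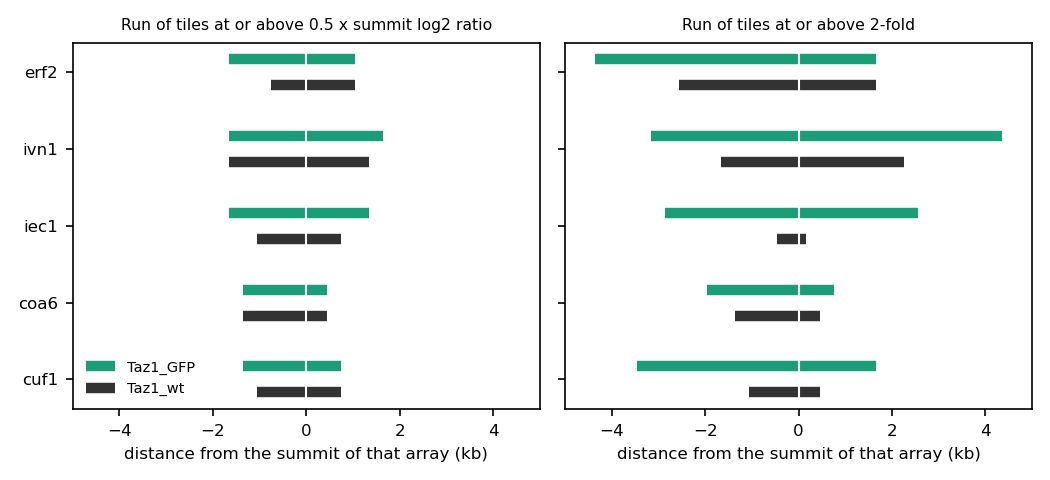
Runs of neighbouring tiles around the summit at or above 0.5 times the summit log2 ratio (left) and at or above 2-fold (right), in kb from the summit of the same array, for Taz1_GFP above and Taz1_wt below in each window. The 2-fold run at iec1 was 5.4 kb on Taz1_GFP and 0.6 kb on Taz1_wt.

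The core of each peak was the 11 tiles within 1.5 kb of the Taz1_GFP summit. Taz1_GFP exceeded Taz1_wt in all 5 cores, by 0.33 to 1.84 with a median of 0.91. Centring the cores on the highest point of Taz1_GFP favours that array. With cores centred on the Taz1_wt summit the median was 0.87. At iec1 the core mean was 2.51 ± 0.65 on Taz1_GFP and 0.68 ± 0.27 on Taz1_wt, a difference of 1.84 ± 0.60 that was positive at 11 of 11 tiles. At erf2 it was 2.69 ± 0.93 on Taz1_GFP and 2.03 ± 0.87 on Taz1_wt, a difference of 0.67 ± 0.39. At coa6 it was 1.81 ± 0.91 on Taz1_GFP and 1.49 ± 0.56 on Taz1_wt, and the difference of 0.33 ± 0.43 was positive at 8 of 11 tiles. With these cores the difference reached 2-fold at iec1 alone, which running medians did at 0.655% of tiles over the whole array. It also passed 2-fold at ivn1 (1.06) and cuf1 (1.14) with cores of 0.75 kb, and at cuf1 with normexp (1.43) and on every other probe, those without the strand mark in their names (1.03). The differences at ivn1 and cuf1 were 0.91 ± 0.25 and 0.97 ± 0.24, positive at 11 of 11 tiles each. The tag, the antibody and the strain differ together between these arrays and cannot be told apart.

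Part of that excess lay outside the cores. Tiles of the same windows farther than 3 kb from the summit were higher on Taz1_GFP than on Taz1_wt, by 0.34 at erf2, 0.18 at ivn1, 0.54 at iec1, 0.07 at coa6 and 0.32 at cuf1. With the median of these tiles as the baseline of each array, the core difference was 0.27 at erf2, 0.61 at ivn1, 1.33 at iec1 and 0.67 at cuf1. At coa6, scaling the arrays to a common spread left a core difference of 0.07.

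**Figure D3:**
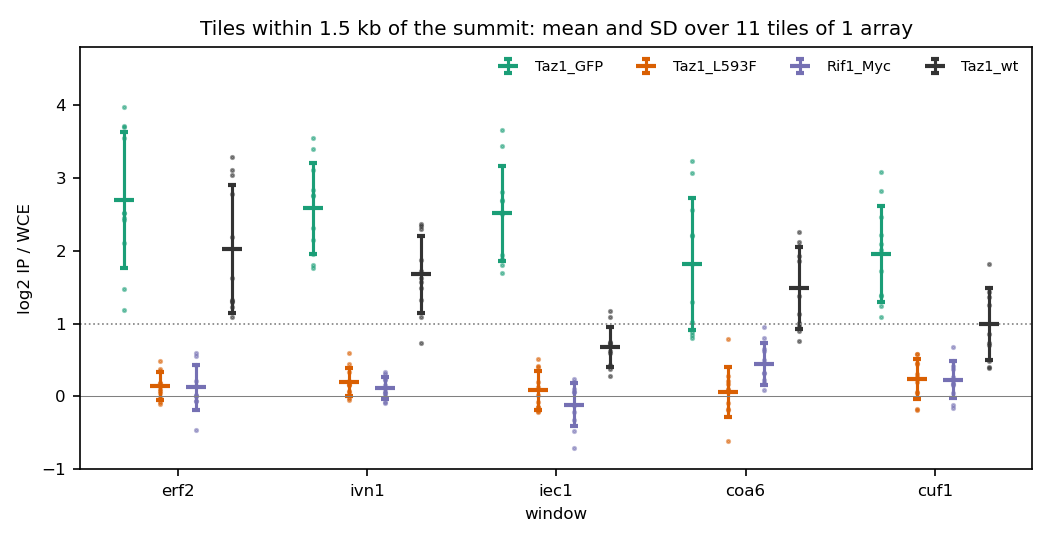
Log2 IP over WCE ratio (vertical axis) of the 11 tiles within 1.5 kb of the Taz1_GFP summit in each window (horizontal axis), with points for tiles, bars for the mean and whiskers for the SD over tiles of 1 array. Means were 1.81 to 2.69 on Taz1_GFP, 0.06 to 0.24 on Taz1_L593F, −0.12 to 0.44 on Rif1_Myc and 0.68 to 2.03 on Taz1_wt.

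How much of the peaks the L593F allele leaves was read from Taz1_L593F against Taz1_wt, with the same antibody on both arrays. The core mean was lower on Taz1_L593F in all 5 windows, at 11 of 11 tiles in each. At erf2 it was 0.15 ± 0.19 on Taz1_L593F and 2.03 ± 0.87 on Taz1_wt, a difference of −1.88 ± 0.74, or 3.68-fold lower. At ivn1 it was 0.19 ± 0.19 on Taz1_L593F and 1.68 ± 0.53 on Taz1_wt, a difference of −1.48 ± 0.38. At coa6 it was 0.06 ± 0.35 on Taz1_L593F and 1.49 ± 0.56 on Taz1_wt, a difference of −1.43 ± 0.72. These 3 cores differed by more than 2-fold, which running medians did in this direction at 0.499% of tiles over the whole array. With cores of 3 kb the coa6 difference was −0.96 and no longer past 2-fold.

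The remaining cores, which were lower on Taz1_wt, differed by less. At cuf1 the core mean was 0.24 ± 0.27 on Taz1_L593F and 0.99 ± 0.50 on Taz1_wt, a difference of −0.76 ± 0.34. At iec1 it was 0.08 ± 0.27 on Taz1_L593F and 0.68 ± 0.27 on Taz1_wt, a difference of −0.60 ± 0.25. The flanks of the windows were also lower on Taz1_L593F, by 0.11 to 0.45.

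A small rise remained near the summits on Taz1_L593F, less clearly at coa6. Within 0.6 kb of the summit its running median reached 0.38 at erf2, 0.45 at ivn1, 0.42 at iec1, 0.28 at coa6 and 0.58 at cuf1. In 4 windows this was the highest point of the window on that array. At iec1 a tile 2.4 kb away was higher, at 0.52. The core exceeded the flank by 0.06 to 0.20 in the 5 windows, beside a robust SD of 0.20 for single tiles of the array. Over the whole array, 0.257% of tiles had a running median as high as the cuf1 one and 4.53% one as high as the coa6 one. At coa6 the highest single tile was 0.78 and was the multi-copy tile. It lay 0.6 kb from the summit and so enters the coa6 values given here. The other coa6 tiles within 0.6 kb were −0.10, −0.62, 0.28 and 0.17 on Taz1_L593F, which shows no steady rise.

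**Figure D4:**
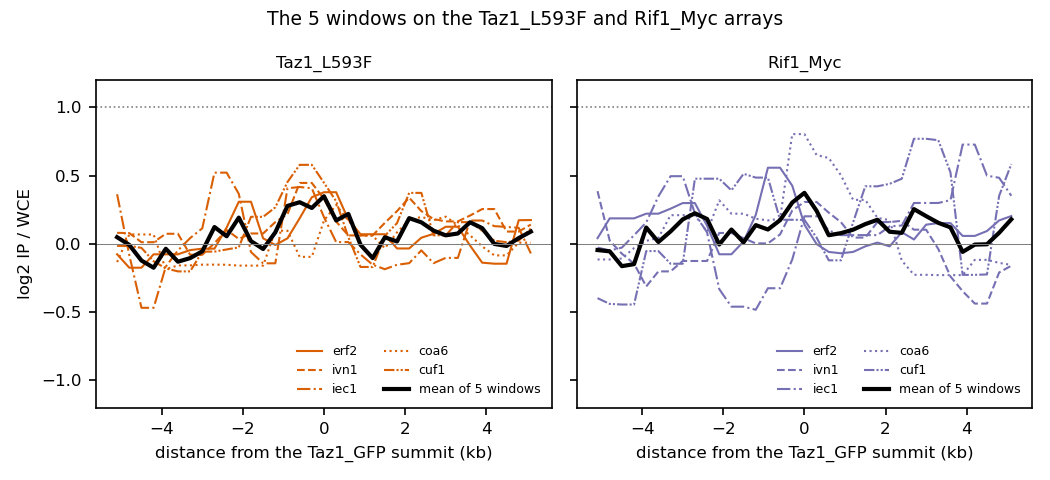
Log2 IP over WCE ratio (vertical axis) within 5.1 kb of the Taz1_GFP summit (horizontal axis, kb) on Taz1_L593F (left) and Rif1_Myc (right), with thin lines for the running medians of the 5 windows and a black line for the mean of their single tiles. The Taz1_L593F mean was 0.35 at the summit and the Rif1_Myc mean 0.37, both below the dotted 2-fold line.

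The Rif1_Myc array was set beside the Taz1 peaks. No tile of the 5 windows reached a running median of 2-fold on that array. The core mean was 0.12 ± 0.31 at erf2, 0.11 ± 0.15 at ivn1, −0.12 ± 0.30 at iec1, 0.44 ± 0.29 at coa6 and 0.23 ± 0.26 at cuf1. Only at coa6 did the highest Rif1_Myc point coincide with the Taz1 summit, with 0.80 at that tile, and 3.88% of tiles were as high once the last 50 kb at each end of chromosomes I and II were left out. There the core exceeded the flank by 0.56, the most of the 5 windows, and tiles followed Taz1_wt with r = 0.70 over 40 tiles. At the other windows the Rif1_Myc maximum lay away from the peak, 6.0 kb off at erf2, 6.3 kb at ivn1, 4.2 kb at iec1 and 3.0 kb at cuf1. At iec1 the sign of the Rif1_Myc core mean turned to 0.19 with loess normalisation, and at cuf1 it turned to −0.03 with normexp background correction.

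The enrichment covered the flanking genes unevenly. As means over the gene and 500 bp on both sides, iec1 was 2.54 on Taz1_GFP, 0.02 on Taz1_L593F, 0.07 on Rif1_Myc and 0.64 on Taz1_wt. The gene erf2 was 2.10 on Taz1_GFP, 0.10 on Taz1_L593F, 0.21 on Rif1_Myc and 1.28 on Taz1_wt, and its neighbour SPBC3H7.08C was 2.06, 0.10, −0.05 and 1.74 on those arrays. The gene ivn1 was 2.22 on Taz1_GFP, 0.20 on Taz1_L593F, 0.05 on Rif1_Myc and 1.58 on Taz1_wt, and wwm1 on its other side was 2.15, 0.18, 0.15 and 1.25. The gene cuf1 was 1.54 on Taz1_GFP, 0.17 on Taz1_L593F, 0.31 on Rif1_Myc and 0.74 on Taz1_wt. The coa6 gene had the lowest Taz1_GFP mean of the member genes, at 0.87 on Taz1_GFP, 0.15 on Taz1_L593F, 0.39 on Rif1_Myc and 0.99 on Taz1_wt, with the summit 863 bp upstream of it. It was the only member gene with a lower mean on Taz1_GFP than on Taz1_wt. Over all 5109 protein-coding genes such a mean reached 2-fold at 0.646% on Taz1_GFP, 0.0196% on Taz1_L593F, 1.17% on Rif1_Myc and 0.294% on Taz1_wt.

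Other genes of the pathways of the member genes were read from 5 lists. Beside iec1, the 14 other genes of the Ino80 list had a median of 0.07 on Taz1_GFP and −0.02 on Taz1_wt, beside 0.00 and 0.00 over all genes. The lowest on Taz1_wt was nht1 at −0.15. The highest after iec1 was the actin gene act1, chosen after its values were seen, at 0.33 on Taz1_GFP and 0.60 on Taz1_wt, where iec1 was 0.64. Beside cuf1, the 10 other genes of copper uptake and Cuf1 regulation had medians of 0.16 and 0.08, and the lowest on Taz1_wt was ctr6, a copper transporter, at −0.07. Beside coa6, the 13 other measured genes of cytochrome oxidase assembly had medians of −0.08 and 0.02, and the lowest was cox14 at −0.45. Beside erf2, the 5 other palmitoylation genes had medians of 0.03 and −0.01, and the lowest was akr1 at −0.10. The 7 genes of shelterin and Rif1 had medians of −0.01 and −0.07, with pot1 highest at −0.04 and taz1 lowest at −0.10 on Taz1_wt. Except for the member genes, no gene of the 5 lists reached 2-fold on any of the 4 arrays. The shares over all genes are so low that few or none would be reached by lists of this size. The next highest on Taz1_wt in the other lists, also named after their values were seen, were pccs (0.23) after cuf1, cox11 (0.30, from 1 tile) after coa6 and pfa3 (0.11) after erf2.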

How the data were processed

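ChIP-chip was measured on 4 arrays, 1 per group. Per the labels, IP DNA carried Cy5 and WCE DNA Cy3 on every array, after random-primed amplification, with no dye swap. Per the file headers, the scanner software was Agilent Feature Extraction 11.5.1.1, and its deposited processed signals are an intensity after background subtraction, spatial detrending and dye scaling. The deposited scanner files also hold the log10 ratio of those signals, which was not used. Values of the deposited series matrix are log2 ratios that were not centred, equal to the ratio of processed signals at all 41551 probes of each array within a tolerance of 1e-06.

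Log2 ratios of the processed signals, red over green, were shifted to an array median of 0, without loess or quantile steps, and outlier spots (31 on Taz1_GFP, 2 on Taz1_L593F, 9 on Rif1_Myc, 74 on Taz1_wt) were left out. Probes are 60 bases long at a spacing of 300 bp, and precision is limited by having 1 array per group. Where running medians tied, the middle tile was taken, of 2 the later. Windows, genes and lists were chosen with earlier results of these data known. The text names the window genes, the genes flanking a summit, and of each list the highest and lowest member on Taz1_wt, the highest being the window gene in 4 of the 5 lists. One cytochrome oxidase assembly gene had no annotation match, and older gene names were matched by synonym. The gene arp4 was planned for the Ino80 list but is not among the 15 genes read there.

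Tiles were placed on ASM294v3 by correlating WCE signal with GC content, and in 250 of 250 blocks the best shift lay within 300 bp of the shift used. The shift used was itself the running median of the best shifts of neighbouring, overlapping blocks. This closeness therefore does not measure the accuracy of the placement. The summit and width measures were tested on simulated data. Alternatives used limma 3.58.1 for normexp and loess. Normexp was run on median spot signals.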

Additional observations from a re-analysis of the deposited data

How the results depend on the processing

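No paired analysis was possible because each group held 1 array. No value with a size of 1 or more, in log2 ratio or in kb, changed sign under any alternative run. Most of these were highest points of a window on a Taz1 array or widths. Such values could hardly turn negative, so nothing is read from this. Of 89 values given as medians or totals over the 5 windows, 75 moved by less than the spread between windows, and of 435 values of single windows 385 moved by less than their spread. These counts include the series matrix values, which equal the main ratios. They also include the run with outlier spots kept, though the windows held no outlier spot. Those alternatives could move a value only through the centring, so the counts overstate stability. For single windows the spread was the robust SD of the array for summits and 0.3 kb for widths. For core values it was the SD over the core tiles, which is wide. The coa6 Taz1_GFP minus Taz1_wt difference of 0.07 with scaled arrays, against 0.33, thus fell within its spread of 0.43. The median Taz1_GFP summit was 3.86 with normexp, 2.77 with the window flanks as the baseline and 2.81 with a running median of 5, against 3.40. The median Taz1_L593F summit was 0.60 with normexp, 0.63 with arrays scaled to the mean MAD and 0.59 for single probes, against 0.45. The median Rif1_Myc summit was 0.52 with scaling, 0.82 with the flank baseline, 0.87 for single probes and 0.63 with a running median of 5, against 0.76. With normexp the median Taz1_wt summit was 3.26, against 2.12, and the median Taz1_L593F minus Taz1_wt difference −1.99, against −1.43. The total of GGTTAC matches within the cores was 3 for cores of 0.75 kb and 10 for cores of 3 kb, against 6 for 1.5 kb, as shorter and longer stretches hold fewer and more. The cause of the other moves was not tested.

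The rule for tied summit tiles was not part of the written design. Another rule, taking the tied tile with the highest value of its own, was tried after the positions of the iec1 summit had been seen, and it is given as an alternative only. Under it the iec1 core difference was 1.88 for Taz1_GFP minus Taz1_wt and −0.54 for Taz1_L593F minus Taz1_wt. The Taz1_GFP minus Taz1_wt difference was positive and the Taz1_L593F minus Taz1_wt difference negative in all 5 windows under all 16 settings. The 16 include the main setting, the series matrix values and the run with outlier spots kept. Fits without GC content or without multi-copy probes were also added after the data were seen. With 1 array per group, none of these values carries a replicate error.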
